A study of Homo sapiens with 4 samples.

Results

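The AP-1 transcription factors described here are 10 genes of the 43622 in the deposited expression table. They were chosen by name, with earlier results of these data known. They are the FOS family (FOS, FOSB, FOSL1 and FOSL2), the JUN family (JUN, JUNB and JUND), and the related leucine zipper factors ATF3, BATF3 and MAFF. RNA was sequenced from PC3, a human cell line derived from prostatic adenocarcinoma, under 4 conditions with 3 libraries each. In Ctrl, the cells received the solvent DMSO. In MLN, they received 1 µM MLN4924, an inhibitor of the enzyme that activates NEDD8, for 3 days. In shARF, PC3 cells with a stable retroviral short hairpin RNA (shRNA) against p14ARF, selected with hygromycin, received DMSO. In Both, cells with the hairpin received MLN4924 at the same dose and time. No control hairpin was named for Ctrl and MLN, so an effect of p14ARF depletion and an effect of the vector or of selection cannot be told apart. The sources do not say whether the libraries of a condition were separate cultures, so the p-values measure the spread between these libraries, which may be technical.

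AP-1 is a pair of proteins joined by their leucine zippers. JUN proteins pair with each other or with FOS proteins, whereas FOS proteins need a partner such as a JUN protein to bind DNA. FOS, FOSB, JUN, JUNB and ATF3 are known as genes that growth factors, cytokines and stress switch on quickly, whereas FOSL1 and FOSL2 are known as later and more lasting members. JUN protein is ubiquitylated by cullin-RING ligases, among them those that use FBXW7 or the COP1 and DET1 adaptors, and these ligases need NEDD8 on their cullin. The libraries measured mRNA, and no protein level can be read from them.

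The genes lie on 6 chromosomes of GRCh38 (GENCODE annotation). JUN spans chr1:58776845-58784048 on the minus strand, and ATF3 (chr1:212565334-212620777, plus strand) and BATF3 (chr1:212686417-212699840, minus strand) lie on the same chromosome with 65639 bases between them. JUN, JUNB and JUND each consist of a single exon, whereas the FOS family members and ATF3 have 4 exons in the canonical transcript. In the 250 bases before the RefSeq start site, available for 8 members (10 promoters, GRCh38.p14), the letters TGACNTCA, which AP-1 and ATF or CREB dimers can bind, were found on either strand in JUN, ATF3, JUND and MAFF. Of all 35116 promoters in the same table, 6.87% held them. The windows of JUN, ATF3 and JUND are shown because these genes gave the contrasting responses described further on, and the window of FOS is shown because it holds the shorter match TGACGT, which was also found in FOSB and FOSL2, and which the TGACGTCA of JUND and MAFF contains. Capitals mark the match, and each window ends before the start site, outside annotated genes.
JUN (chr1:58784081-58784140, minus strand): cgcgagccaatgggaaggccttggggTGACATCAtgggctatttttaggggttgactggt
ATF3 (chr1:212565258-212565317, plus strand): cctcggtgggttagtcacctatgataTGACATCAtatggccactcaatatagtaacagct
JUND (chr19:18281789-18281848, minus strand): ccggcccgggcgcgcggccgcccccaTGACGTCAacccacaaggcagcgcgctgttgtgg
FOS (chr14:75278738-75278795, plus strand): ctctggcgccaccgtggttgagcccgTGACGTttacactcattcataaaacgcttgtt
The match began 67 bases before the start site in JUN, 123 bases before it in ATF3, 200 bases before it in JUND and 64 bases before it in FOS. JUND held a further TGACGT outside its TGACGTCA, on the opposite strand, 87 bases before the start site. TGACGT was found in 7.1% of all promoters. The classical AP-1 letters TGACTCA, found in 4.2% of all promoters, and the serum response CArG box, found in 1.16%, were in none of the members' windows, and an NF-kB site, found in 9.96%, was in MAFF alone. Sequence farther from the start sites was not searched, so sites there would be missed. These matches are descriptions of sequence, and binding was not measured.

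Values are TPM, a unit that corrects for transcript length and sums to the same total in each library, and the read depth behind them is unknown. Libraries of the same condition had Spearman correlations of 0.993 to 0.996 across the genes averaging 1 TPM or more, against 0.86 to 0.971 between conditions. CDKN2A, which encodes p14ARF and p16INK4a, was at 190.1, 183 and 177 TPM in Ctrl and at 58.2, 58.7 and 60.9 TPM in shARF (log2 fold change −1.63 ± 0.04 SE, limma adjusted p = 2.24e-05). It was lower with MLN4924 as well, with a mean of 118 TPM in MLN (MLN vs Ctrl −0.65 ± 0.11, limma adjusted p = 0.00235) and 47.5 TPM in Both. The call in Both vs shARF (−0.33 ± 0.10, limma adjusted p = 0.0296) was lost in 7 of 13 alternative settings. Among these was median-of-ratios scaling (−0.23, limma adjusted p = 0.128). The summed level of the epithelial markers KRT8, KRT18 and EPCAM was between 223 and 706 TPM. Of the prostate luminal markers, KLK3 was listed at 0 in all 12 libraries. CXCL8 alone held between 2.64% and 3.78% of all TPM in the MLN and Both libraries and at most 0.108% in the others.

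In Ctrl, FOSL1 was the most abundant member and FOS the least. Mean levels, in TPM ± SD with n = 3, were 443 ± 40.5 for FOSL1, 129 ± 3.07 for JUN, 106 ± 12.6 for JUND, 102 ± 7.45 for JUNB, 59.8 ± 7.2 for FOSL2 and 38.5 ± 1.31 for MAFF. ATF3 (9.25 ± 0.72), BATF3 (4.47 ± 0.809), FOSB (1.18 ± 0.17) and FOS (0.393 ± 0.0972) followed. In this order only JUND and JUNB had overlapping libraries. After MLN4924 the order changed: ATF3 reached a mean of 174 TPM in MLN, above JUN at 129 TPM with no overlap of their libraries, while FOSL1 stayed first and FOS last. In RNA pooled from many cells, a change in every cell and a change in a share of the cells cannot be told apart.

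The first question was how MLN4924 changed the members in PC3 cells. On a log2(TPM + 0.1) basis, 8 of the 10 members rose in MLN vs Ctrl, FOSL2 fell and JUN was not called. Of all 19932 genes tested, 32.2% rose and 29.4% fell by the same criterion (limma adjusted p below 0.05). The median log2 fold change was 1.41 over the members and 0.05 over all genes. ATF3, FOS and FOSB rose by more than 2 on the log2 scale, as did 6.15% of all genes (5.58% in Both vs shARF, where FOSB and MAFF joined ATF3 above 2). The same comparison in cells with the hairpin, Both vs shARF, shares no library with the first. There 9 members rose and JUND was not called, where 28.3% of all genes rose and 32.8% fell. The median was 0.90 over the members and −0.04 over all genes.

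**Figure D1:**
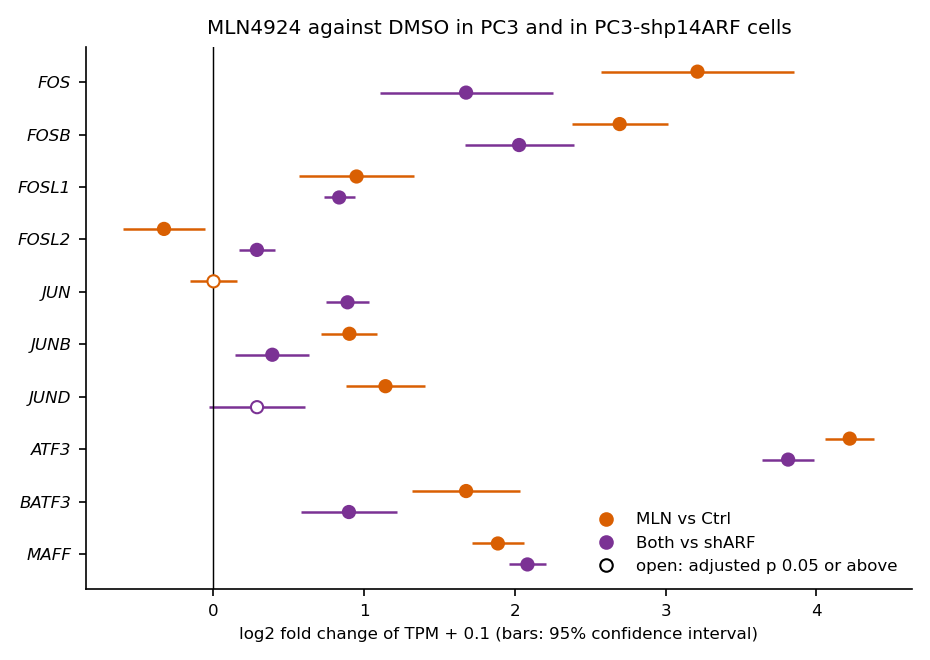
log2 fold change of TPM + 0.1 after MLN4924 (horizontal axis) for each AP-1 gene in PC3 cells (MLN vs Ctrl, orange) and in cells with the hairpin (Both vs shARF, purple). Bars are 95% confidence intervals and open points have a limma adjusted p of 0.05 or above; JUN sits at 0.00 in PC3 cells and at 0.89 in cells with the hairpin, and ATF3 is farthest to the right in both.

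ATF3, a stress-induced factor that pairs with JUN proteins, gave the largest response of the 10. Its level was 9.09, 8.63 and 10.0 TPM in Ctrl and 172, 169 and 180.4 TPM in MLN. It was 7.56, 8.35 and 9.07 TPM in shARF and 119.9, 116 and 118 TPM in Both. Every library with MLN4924 was far above every library with DMSO, and the MLN libraries were all above the Both libraries. The rise was 18.6-fold in PC3 cells (log2 fold change 4.22 ± 0.07 SE, limma adjusted p = 1.24e-06) and 14-fold in cells with the hairpin (3.81 ± 0.07, limma adjusted p = 1.25e-06). The difference between these responses, fitted as an interaction over the 12 libraries, was −0.41 ± 0.10 on the log2 scale (limma adjusted p = 0.0111). With DMSO, ATF3 did not pass the test in shARF vs Ctrl (−0.15, 95% confidence interval −0.39 to 0.09), and with MLN4924 it was lower in Both than in MLN (−0.56 ± 0.05, limma adjusted p = 0.000943).

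FOS and FOSB, the early FOS proteins with a strong activation domain, were scarce without the inhibitor. The Ctrl libraries had 0.434, 0.462 and 0.281 TPM of FOS, the MLN libraries 3.55, 4.04 and 5.91 TPM, the shARF libraries 0.389, 0.288 and 0.49 TPM and the Both libraries 1.34, 1.27 and 1.76 TPM. For FOSB, Ctrl had 1.38, 1.1 and 1.07 TPM and MLN 7.73, 8.28 and 8.5 TPM, while shARF had 0.907, 0.923 and 0.8 TPM and Both 4.29, 4.08 and 3.34 TPM. For both genes the 4 conditions were ordered MLN, Both and then the DMSO conditions, and MLN and Both did not overlap. In MLN vs Ctrl the log2 fold change of FOS was 3.21 ± 0.26 (limma adjusted p = 0.000127) and in Both vs shARF it was 1.68 ± 0.23 (limma adjusted p = 0.00126). FOSB rose by 2.70 ± 0.13 (limma adjusted p = 2.02e-05) and by 2.03 ± 0.15 (limma adjusted p = 8.28e-05). The pseudocount understates such changes of low genes. The responses differed for FOS (interaction −1.53 ± 0.36, limma adjusted p = 0.0079) and for FOSB (−0.67 ± 0.20, limma adjusted p = 0.0278), but the call for FOSB was lost when any of 7 of the 12 libraries was left out (Ctrl 2 or 3, MLN 2 or 5, shARF 1 or 3, or Both 4; −0.66 to −0.56). Part of FOSB overlaps ERCC1 on the opposite strand. The level of ERCC1 went from 25.2 ± 2.48 to 34.4 ± 3.15 TPM with MLN4924 in PC3 cells and from 26.9 ± 2.18 to 44.8 ± 1.15 TPM in cells with the hairpin, and since the use of strand is not stated, its part in the FOSB values was not tested.

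FOSL1 (FRA-1), a factor often abundant in invasive epithelial cancer cells, was first in every library among the members. It was at 485, 404 and 441 TPM in Ctrl and at 715, 826 and 1056 TPM in MLN. In the hairpin cells it went from 379, 385 and 372 TPM in shARF to 693, 678 and 657 TPM in Both. The MLN libraries had the widest spread, and the libraries with MLN4924 were above those with DMSO without overlap. The rise was 1.93-fold (log2 fold change 0.95 ± 0.16, limma adjusted p = 0.00242) and 1.78-fold (0.84 ± 0.04, limma adjusted p = 2.16e-05), and the responses were not shown to differ (interaction −0.12, 95% confidence interval −0.47 to 0.24).

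FOSL2 (FRA-2), the other late member, moved in opposite directions in the cells without and with the hairpin. In PC3 cells it went from 67.8, 53.8 and 57.9 TPM with DMSO to 42.8, 48.2 and 52.0 TPM with MLN4924. In cells with the hairpin it went from 35.2, 37.0 and 38.1 TPM to 46.7, 44.8 and 43.4 TPM. Ctrl was highest and shARF lowest, and MLN and Both overlapped. FOSL2 fell in MLN vs Ctrl (−0.33 ± 0.11, limma adjusted p = 0.0423), a call lost without Ctrl replicate 1 or 3 or MLN replicate 1 or 2 (−0.23 to −0.35), and it rose in Both vs shARF (0.29 ± 0.05, limma adjusted p = 0.00264). The interaction was 0.62 ± 0.13 (limma adjusted p = 0.0032). It was lower in shARF than in Ctrl (−0.70 ± 0.09, limma adjusted p = 0.00345).

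JUN, the founding AP-1 protein and the cullin-RING substrate, had about the same mRNA level in 3 of the 4 conditions. In PC3 cells it was at 133, 127 and 127 TPM with DMSO and at 121, 139 and 128 TPM with MLN4924. In cells with the hairpin it was at 72.9, 67.7 and 71.2 TPM with DMSO and at 138, 122 and 134 TPM with MLN4924. The shARF libraries were all below the others, and the Ctrl, MLN and Both libraries overlapped. In PC3 cells the change with MLN4924 was 0.00 with a 95% confidence interval of −0.15 to 0.16 (limma adjusted p = 0.981). In cells with the hairpin JUN rose 1.85-fold (0.89 ± 0.06, limma adjusted p = 5.85e-05), and the interaction was 0.89 ± 0.09 (limma adjusted p = 2.95e-05). With DMSO, shARF cells had 0.547 times the JUN of Ctrl cells (−0.87 ± 0.04, limma adjusted p = 0.00011). With MLN4924, the difference between Both and MLN was 0.02 (95% confidence interval −0.17 to 0.21, limma adjusted p = 0.88).

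JUNB and JUND, whose products activate transcription more weakly than JUN in many settings, responded in PC3 cells. JUNB was at 98.7, 96.1 and 110.1 TPM in PC3 cells with DMSO and at 179, 188 and 204 TPM with MLN4924. With the hairpin it was at 108, 102 and 125 TPM and, with MLN4924 as well, at 147, 133 and 159 TPM. The Ctrl and shARF libraries overlapped, the Both libraries were above them, and the MLN libraries were higher still. JUNB rose by 0.90 ± 0.08 in MLN vs Ctrl (limma adjusted p = 0.000147) and by 0.39 ± 0.10 in Both vs shARF (limma adjusted p = 0.0154). The second call was lost without shARF replicate 1 or 3 or Both replicate 2 or 4 (0.33 to 0.39). The responses differed by −0.51 ± 0.13 (interaction, limma adjusted p = 0.0109). HOOK2, which overlaps JUNB on the opposite strand, did not exceed 9.0 TPM.

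The level of JUND was 120.1, 103 and 95.6 TPM in Ctrl and 212, 254 and 236 TPM in MLN. In the hairpin cells it was 166, 153 and 206 TPM in shARF and 207, 195 and 238 TPM in Both. Ctrl was the low condition, and the shARF libraries overlapped those of Both. JUND was the 1 member called higher in shARF than in Ctrl (0.72 ± 0.14, limma adjusted p = 0.013). It rose by 1.14 ± 0.11 with MLN4924 in PC3 cells (limma adjusted p = 0.000233). In cells with the hairpin its change was 0.29 (95% confidence interval −0.03 to 0.61, limma adjusted p = 0.0992), and it passed the test without shARF replicate 5 (0.41, limma adjusted p = 0.0221), with median-of-ratios scaling (0.39, limma adjusted p = 0.0436) and with a minimum mean of 1 TPM (limma adjusted p = 0.046). The interaction was −0.85 ± 0.17 (limma adjusted p = 0.00303), opposite in sign to that of JUN.

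BATF3, a zipper factor that pairs with JUN proteins and is best known from dendritic cells, differed most between cells with and without the hairpin. In PC3 cells its level was 3.97, 5.4 and 4.03 TPM in Ctrl and 12.8, 15.0 and 15.4 TPM in MLN. With the hairpin its level was 1.22, 1.26 and 1.23 TPM in shARF and 2.65, 2.18 and 2.37 TPM in Both. The conditions did not overlap, and even the Both libraries were below those of Ctrl. BATF3 was lower in shARF than in Ctrl (−1.76 ± 0.15, limma adjusted p = 0.000821) and lower in Both than in MLN (−2.54 ± 0.12, limma adjusted p = 0.000281). With MLN4924 it rose by 1.68 ± 0.15 in PC3 cells (limma adjusted p = 0.00017) and by 0.90 ± 0.13 in cells with the hairpin (limma adjusted p = 0.0014), with an interaction of −0.78 ± 0.19 (limma adjusted p = 0.0102). BATF3 neighbours ATF3, with 1 protein-coding gene between them, and had 0.488 ± 0.121 times the level of ATF3 in Ctrl and 0.0203 ± 0.0016 times its level in Both.

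MAFF, a small MAF protein without an activation domain that pairs with cap'n'collar factors such as NFE2L2, was at 40.0, 37.6 and 37.9 TPM in Ctrl and at 132, 155 and 142 TPM in MLN. It was at 19.6, 20.1 and 20.7 TPM in shARF and at 88.1, 80.8 and 88.2 TPM in Both. The 4 conditions did not overlap. MAFF rose 3.7-fold in PC3 cells (1.89 ± 0.07, limma adjusted p = 9.09e-06) and 4.24-fold in cells with the hairpin (2.08 ± 0.05, limma adjusted p = 2.04e-06). The interaction was 0.20 (95% confidence interval 0.00 to 0.40, limma adjusted p = 0.133), and it passed the test with median-of-ratios scaling (0.29, limma adjusted p = 0.024). PLA2G6, which overlaps MAFF on the opposite strand, did not exceed 3.1 TPM. MAFF was lower with the hairpin with DMSO (−0.93 ± 0.04, limma adjusted p = 9.84e-05) and with MLN4924 (−0.73 ± 0.08, limma adjusted p = 0.00176).

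The second question was how the hairpin changed the members. In shARF vs Ctrl, FOSL2, JUN, BATF3 and MAFF fell, JUND rose, and the other 5 were not called, where 20.4% of all genes fell and 21% rose. FOSL1 was at the margin (−0.22 ± 0.07, limma adjusted p = 0.058), and it passed without Ctrl replicate 2 (−0.29, limma adjusted p = 0.0202), with median-of-ratios scaling (−0.23, limma adjusted p = 0.0248) and with a minimum mean of 1 TPM (limma adjusted p = 0.03). In Both vs MLN 6 members fell (FOS, FOSB, JUNB, ATF3, BATF3 and MAFF) and none rose, where 20.6% of all genes fell and 11.8% rose. That split of all genes depends on scaling, since 36.4% of the calls were higher with the deposited values and 51.4% with median-of-ratios scaling. JUNB (−0.38 ± 0.09, limma adjusted p = 0.021) did not pass with that scaling (−0.29, limma adjusted p = 0.0604), nor without MLN replicate 2 or 5 or Both replicate 2 or 3 (−0.31 to −0.39). FOSL1 was not called in Both vs MLN (−0.34 ± 0.15, limma adjusted p = 0.134) but passed in the joint fit (limma adjusted p = 0.0361). The members called in both comparisons were BATF3 and MAFF. Markers of cell types moved with the hairpin too. The summed level of the fibroblast markers COL1A1, COL1A2 and DCN was 52.9 to 63.8 TPM in shARF, against 12.8 to 15.4 TPM in Ctrl, 18.5 to 21.2 TPM in MLN and 9.95 to 11.0 TPM in Both. The sum in shARF rests on COL1A2, which was at 6.73 ± 0.441 TPM in Ctrl and 54.5 ± 4.91 TPM in shARF, whereas COL1A1 fell from 7.27 ± 0.856 to 4.04 ± 0.528 TPM. The epithelial sum was 613 to 706 TPM in shARF against 356 to 396 TPM in Ctrl, 259 to 291 TPM in MLN and 223 to 236 TPM in Both. Their part in the values of the members was not tested.

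**Figure D2:**
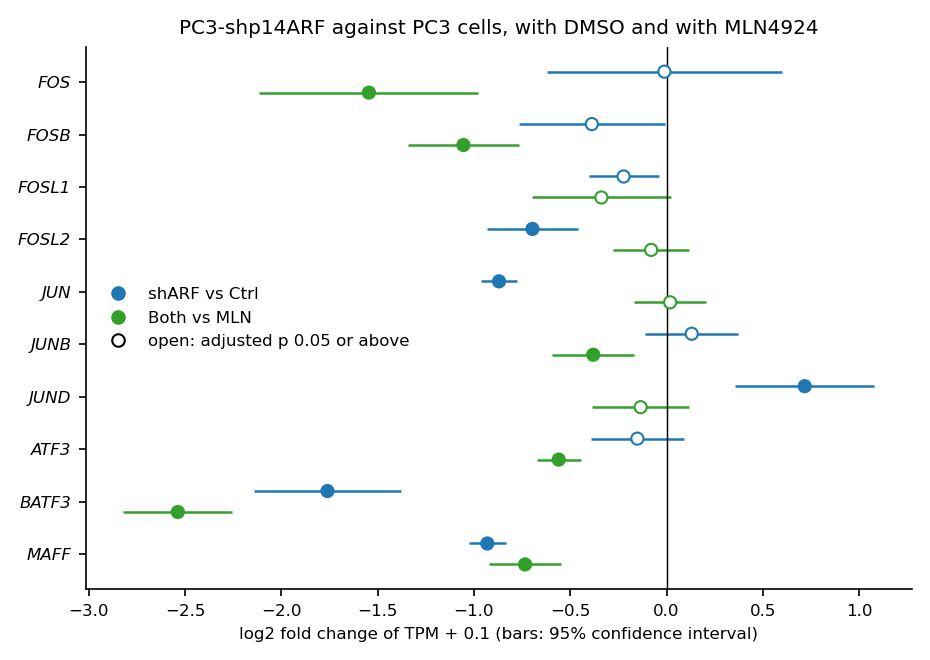
log2 fold change of TPM + 0.1 between cells with and without the hairpin (horizontal axis), with DMSO (shARF vs Ctrl, blue) and with MLN4924 (Both vs MLN, green). Bars are 95% confidence intervals and open points have a limma adjusted p of 0.05 or above; BATF3 is farthest to the left in both, and JUN is at −0.87 with DMSO and at 0.02 with MLN4924.

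The interaction, the response to MLN4924 in cells with the hairpin minus that in PC3 cells, was called in 8 of the 10 members. It was below 0 in FOS, FOSB, JUNB, JUND, ATF3 and BATF3 and above 0 in JUN and FOSL2. Over all genes, 17.1% were called below 0 and 11.2% above it. Of all interaction calls 39.5% were above 0 with the deposited values and 53.5% with median-of-ratios scaling. The 6 members below 0 had a smaller log2 change with MLN4924 in cells with the hairpin. Of these, FOS, FOSB, JUNB, ATF3 and BATF3 were lower in Both than in MLN. JUND instead started from a higher level in shARF (175 ± 27.6 TPM) than in Ctrl (106 ± 12.6 TPM), and its MLN and Both libraries overlapped. JUN and FOSL2 started from a lower level in shARF and ended in Both at levels that overlapped those in MLN.

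These changes altered the makeup of the families. The share of FOSL1 in the FOS family TPM went from 87.8% ± 0.363 (SD, n = 3) to 93.4% ± 0.594 with MLN4924 in PC3 cells and from 90.9% ± 0.418 to 93.1% ± 0.0861 in cells with the hairpin, and FOS itself was at most 0.527% in every library. The JUN family sum went from 337 ± 13.2 to 554 ± 37.5 TPM in PC3 cells and from 357 ± 40.6 to 491 ± 40.6 TPM in cells with the hairpin. JUN made up 38.3% ± 0.679 of this sum in Ctrl and 23.4% ± 0.733 in MLN, and it made up 19.9% ± 1.91 in shARF and 26.8% ± 1.4 in Both, while JUND went from 31.5% ± 2.73 in Ctrl to 42.2% ± 1.32 in MLN, 48.9% ± 2.08 in shARF and 43.4% ± 1.37 in Both. The ratio of JUN to JUND within a library, which no scaling of the library can change, was 1.1 to 1.33 in Ctrl and 0.345 to 0.666 in the other 9 libraries. The ratio of ATF3 to JUN was at most 0.128 in the libraries with DMSO, between 1.21 and 1.43 in MLN and between 0.871 and 0.953 in Both. These shares and ratios are descriptions and were not tested.

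**Figure D3:**
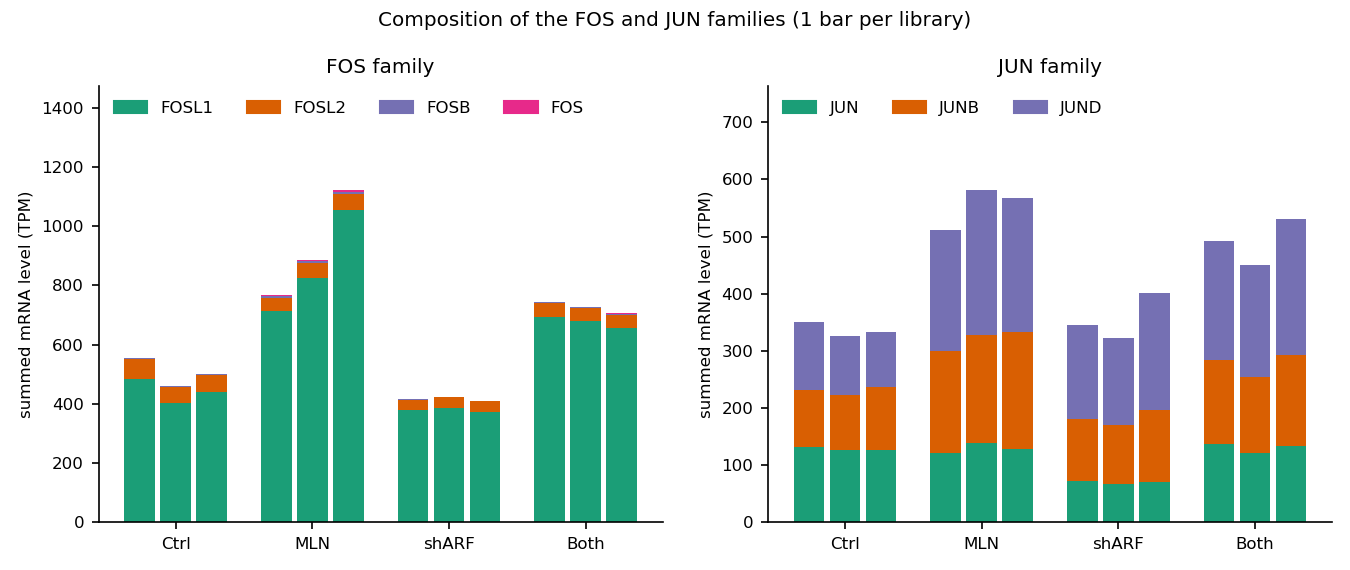
Summed TPM (vertical axes, starting at 0) of the FOS family (left) and the JUN family (right), with 1 stacked bar for each library and colours for the members. FOSL1 fills most of each FOS bar, and JUN takes a larger part of the JUN family bar in Ctrl, 38.3% on average, than in the other conditions.

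Other proteins that can pair with AP-1 or MAF factors were taken as a list of 11 genes. In MLN vs Ctrl 8 of the 11 rose and 2 fell (all genes, 32.2% and 29.4%), and in Both vs shARF 8 rose and none fell (all genes, 28.3% and 32.8%), with medians of 1.55 and 1.32. BATF2, which like BATF3 pairs with JUN proteins, rose in PC3 cells from 4.29 ± 0.443 to 49.4 ± 3.54 TPM (log2 fold change 3.50 ± 0.10, limma adjusted p = 4.34e-06) and less in cells with the hairpin, from 5.36 ± 0.103 to 20.3 ± 1.27 TPM (interaction −1.60 ± 0.12, limma adjusted p = 3.34e-06). JDP2, a repressor of AP-1, rose from 0.268 ± 0.0704 to 2.17 ± 0.156 TPM in PC3 cells. The other small MAF genes rose beside MAFF: MAFG went from 54.0 ± 6.8 to 312 ± 34.1 TPM in PC3 cells and from 36.8 ± 1.36 to 233 ± 21.3 TPM in cells with the hairpin. MAFK went from 28.8 ± 3.42 to 120.2 ± 8.23 TPM in PC3 cells. In shARF vs Ctrl 7 of the 11 fell and 1 rose (all genes, 20.4% and 21%), with BACH1, a repressor that pairs with small MAF proteins, at 22.4 ± 1.9 TPM in Ctrl and 9.87 ± 0.463 in shARF, and CREB5 at 9.71 ± 0.751 and 6.56 ± 0.19 TPM.

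The kinases that act on AP-1 changed by at most 0.65 on the log2 scale, in either direction, in MLN vs Ctrl. Of 11 listed genes of the JNK, ERK and p38 pathways 10 were tested, and 3 rose and 5 fell there (median −0.23), while 3 rose and 3 fell in Both vs shARF (median −0.17). Of all genes, 32.2% rose and 29.4% fell in the first comparison and 28.3% and 32.8% in the second. The counts of kinases that rose are near the background in both comparisons, as is the count that fell in the second. In the first, 5 of 10 kinases fell, a larger share than in all genes, and this difference was not tested. MAPK14, the gene of p38 alpha, was at 43.4 ± 0.792 TPM in Ctrl and 27.6 ± 1.39 in MLN, and MAP2K4, which activates JNK, was at 21.4 ± 0.713 and 28.9 ± 1.38 TPM. MAP2K2 fell from 85.4 ± 10.6 to 55.0 ± 7.22 TPM. MAP2K1, the other MEK gene, was lowest in shARF, going from 116 ± 4.89 to 88.4 ± 5.43 TPM with MLN4924 in PC3 cells and from 58.8 ± 4.11 to 80.7 ± 3.72 TPM in cells with the hairpin. MAPK8, the gene of JNK1, was lower in shARF (5.08 ± 0.33 TPM) than in Ctrl (8.22 ± 0.572 TPM).

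Among 11 genes for the ubiquitylation of JUN, 2 rose and 6 fell in MLN vs Ctrl (median −0.45; all genes, 32.2% and 29.4%), and 1 rose and 7 fell in Both vs shARF (median −0.44; all genes, 28.3% and 32.8%). DET1, an adaptor of the COP1 ligase for JUN, fell from 3.63 ± 0.547 to 0.809 ± 0.151 TPM in PC3 cells (log2 fold change −2.04 ± 0.19, limma adjusted p = 0.00023) and from 3.69 ± 0.307 to 0.872 ± 0.0909 TPM in cells with the hairpin. ITCH, a HECT ligase for JUN and JUNB, fell from 80.5 ± 1.84 to 43.7 ± 0.878 TPM in PC3 cells, and DDB1 and CUL1 fell from 91.0 ± 6.57 to 56.5 ± 7.2 and from 88.9 ± 1.49 to 60.3 ± 4.43 TPM. FBXW7 was at 4.62 ± 0.645 TPM in Ctrl and 4.94 ± 0.245 in MLN and did not pass the test. In shARF vs Ctrl 4 of the 11 rose and 1 fell (all genes, 21% and 20.4%), with SKP1 at 62.4 ± 1.71 TPM in Ctrl and 81.7 ± 7.63 in shARF, and DDB1 at 111 ± 2.61 TPM in shARF.

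Other early growth and stress response genes were taken as a list of 10. Of these immediate early genes, 8 rose and 1 fell in MLN vs Ctrl (median 1.80; all genes, 32.2% and 29.4%), and 8 rose and none fell in Both vs shARF (median 1.53; all genes, 28.3% and 32.8%). DUSP1, the phosphatase that switches off JNK and p38, went from 13.9 ± 1.08 to 391 ± 21.7 TPM in PC3 cells and from 15.2 ± 2.14 to 213 ± 4.73 TPM in cells with the hairpin. EGR1 went from 0.0816 ± 0.0743 to 10.7 ± 2.73 TPM in PC3 cells and, unlike DUSP1, reached a higher level with the hairpin, 19.5 ± 3.15 TPM in Both (Both vs MLN 0.88 ± 0.20, limma adjusted p = 0.0213). ZFP36 went from 3.75 ± 1.2 to 23.3 ± 0.717 TPM and NR4A1 from 2.82 ± 0.663 to 16.5 ± 2.42 TPM in PC3 cells. With DMSO, IER3 was at 711 ± 17.0 TPM in Ctrl and 165 ± 4.19 in shARF, and EGR2 was at 3.8 ± 0.528 and 1.11 ± 0.248 TPM.

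Of 14 genes known as AP-1 targets, 8 rose and 3 fell in MLN vs Ctrl (median 1.23; all genes, 32.2% and 29.4%), and 10 rose and 3 fell in Both vs shARF (median 1.13; all genes, 28.3% and 32.8%). MMP3, the gene of stromelysin, went from 0.895 ± 0.0893 to 634 ± 27.4 TPM in PC3 cells, MMP10 from 9.65 ± 0.917 to 174 ± 22.5 TPM and HBEGF from 15.7 ± 0.596 to 143 ± 11.9 TPM. CXCL8, the gene of interleukin-8, went from 998 ± 80.3 to 31280 ± 5424 TPM in PC3 cells and from 16.6 ± 1.44 to 37042 ± 948 TPM in cells with the hairpin (interaction 6.16 ± 0.17, limma adjusted p = 6.13e-10). In shARF vs Ctrl 4 of the 14 rose and 6 fell, where 21% of all genes rose and 20.4% fell. CXCL8 and IL6 were lower in shARF, with IL6 at 4.44 ± 0.284 TPM in Ctrl and 0.177 ± 0.0867 TPM in shARF. The collagenase genes MMP1 and MMP13 were higher, at 33.5 ± 2.2 and 7.3 ± 0.264 TPM in Ctrl and at 357 ± 13.9 and 86.9 ± 1.71 TPM in shARF. Many factors besides AP-1 act on these genes, and no binding was measured.

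**Figure D4:**
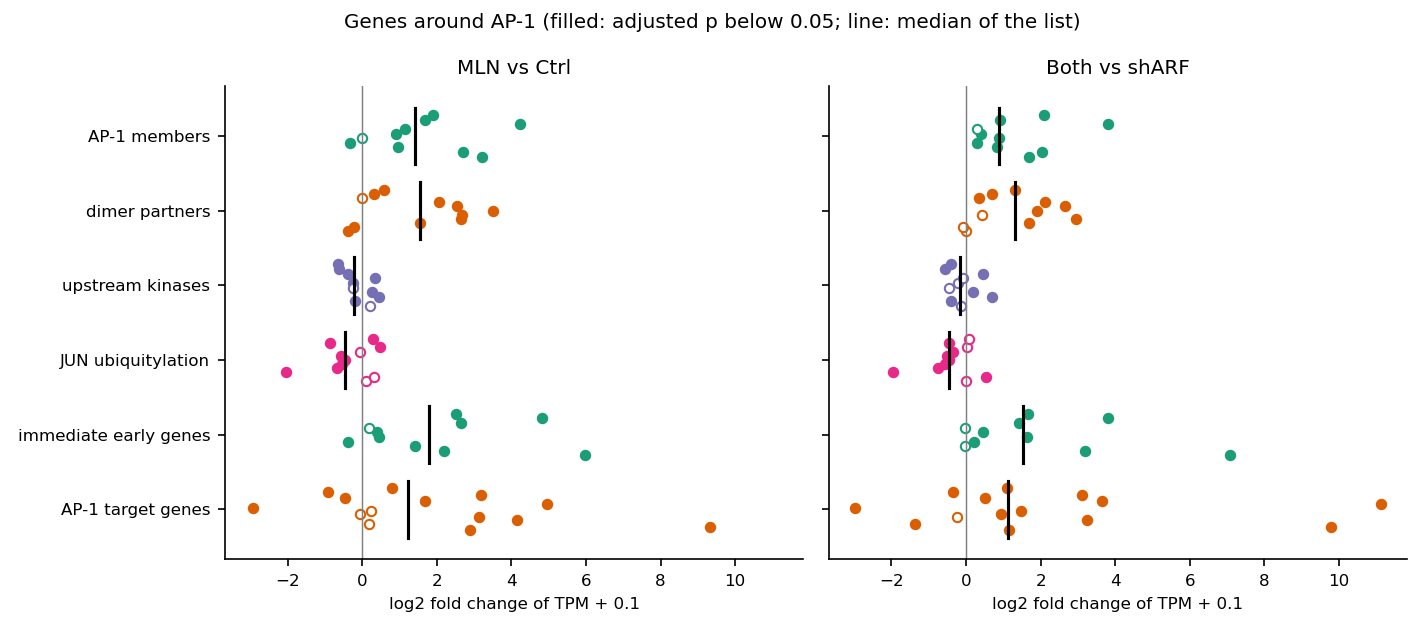
log2 fold change of TPM + 0.1 after MLN4924 (horizontal axes, the same range in both panels) for the AP-1 genes and 5 lists of related genes, in PC3 cells (left) and in cells with the hairpin (right). Filled points passed the limma test, open points did not, and vertical lines are list medians, which lie above 0 for the AP-1 genes, partners, immediate early genes and targets and below 0 for the kinases and the ubiquitylation genes.

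The genes whose pattern was most like that of JUN were sought among the 14663 genes averaging 1 TPM or more, by the root mean square difference of centred log2(TPM + 0.1) over the 12 libraries. PLAU, the gene of urokinase, was nearest at 0.0963, against a spread of JUN itself of 0.385. PLAU went from 847 ± 14.2 to 817 ± 64.9 TPM with MLN4924 in PC3 cells and from 413 ± 26.9 to 787 ± 37.2 TPM in cells with the hairpin, so that, like JUN, it was low in shARF alone. ADCY7 (0.0985) and RFXAP (0.113) came next, and the nearest member, FOSL2, was at rank 425 with 0.26. For ATF3, CPA4, a carboxypeptidase gene, was nearest (0.152, against a spread of 2.02), going from 12.7 ± 0.718 to 294 ± 11.3 TPM in PC3 cells and from 11.0 ± 0.256 to 165 ± 5.22 TPM in cells with the hairpin. TMEM40 (0.184) and DUSP1 (0.217) followed, and the nearest member was FOSB at rank 266. All distances share the 12 libraries and were given no test.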

How the data were processed

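The authors trimmed the reads, mapped them to hg38 and quantified genes with an Ensembl annotation in CLC Genomics Workbench, and they deposited TPM values for 43622 genes in 12 libraries. Layout and strandedness are not given in the sources used here. The series has 1 sample record per condition, and library numbers come from the column names. The series text gives the dose of MLN4924 as 1 mM, and the treatment protocol in the labels as 1 µM. The labels call the hairpin line Sh ARF and the series text calls it a knockout.

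The 19932 genes averaging 0.1 TPM or more were tested on log2(TPM + 0.1) with limma 3.58.1 in R 4.3.3 (lmFit, eBayes with trend), with Benjamini-Hochberg adjustment across all genes tested. Each comparison was fitted to its 6 libraries, and the interaction to all 12. Calls were made below an adjusted p of 0.05. The fit was tested on simulated data. The members and gene lists were chosen with earlier results of these data known. Named list genes average 1 TPM or more and have the largest called change, at most 4 per list in MLN vs Ctrl and 2 in shARF vs Ctrl. Genes named beyond this rule, namely FBXW7, MMP1, MMP13 and genes overlapping a member, were chosen after their values were seen. COP1 was read under its older symbol RFWD2. Promoter sequences are from RefSeq (GRCh38.p14). Alternatives were each library left out in turn, a replicate block, a pseudocount of 1 or 0.01, no filter or one at 1 TPM, eBayes without trend, a joint fit of the 12 libraries, and scaling by the median of ratios. Some marker genes are not reported here.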

Additional observations from a re-analysis of the deposited data

Results flagged for a closer look

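The response to MLN4924 differed between PC3 cells and cells with the hairpin in 8 of the 10 AP-1 genes, by a test of the difference itself (interaction over the 12 libraries, limma with Benjamini-Hochberg adjustment). For 6 genes the response was smaller with the hairpin. The difference on the log2 scale was −1.53 for FOS, −0.67 for FOSB, −0.51 for JUNB, −0.85 for JUND, −0.41 for ATF3 and −0.78 for BATF3. It was 0.89 for JUN and 0.62 for FOSL2. Of all genes tested, 17.1% were called below 0 and 11.2% above 0. The calls were not equally firm. With the replicate block FOS, FOSB, JUNB and ATF3 lost theirs (limma adjusted p = 0.061, 0.224, 0.0584 and 0.0944). That of FOSB was also lost with some libraries left out. JUN was not called in MLN vs Ctrl and fell in shARF vs Ctrl, and FOSL2 fell with MLN4924 in PC3 cells and rose in cells with the hairpin. JUND was already higher in shARF than in Ctrl. The hairpin, its vector and selection cannot be told apart in this design.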

How the results depend on the processing

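The 5 comparisons of the 10 AP-1 genes were recomputed under 13 to 19 alternatives each. Of these values, 675 kept their direction and their side of the threshold, 33 lost the call, 9 gained it and 13 changed sign. The number of AP-1 genes lower in MLN vs Ctrl, 1, became 0 with no filter, with eBayes without trend and with the replicate block, and ranged from 0 to 1 with a library left out. Values near 0 changed sign: JUN in MLN vs Ctrl (−0.000162 with median-of-ratios scaling, −0.052 to 0.0519 with a library left out), JUN in Both vs MLN (−0.0305 to 0.0733), FOS in shARF vs Ctrl (−0.19 to 0.15), FOSL2 in Both vs MLN (0.0119 with median-of-ratios scaling) and FOSL1 in the interaction (−0.24 to 0.0376).

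Library numbers were shared in part between conditions (1 or 2 numbers per pair of conditions), and libraries with the same number did not deviate together (correlations −0.147 to 0.0584), so the numbers were not taken as pairs. With the replicate block, 0 AP-1 genes were called in shARF vs Ctrl, 0 higher and 0 lower, in a fit that leaves 1 residual degree of freedom. CDKN2A, the target of the hairpin, lost its call there too (−1.65, limma adjusted p = 0.0607). The share of all genes called with the block was not computed for any comparison, so counts of AP-1 genes with the block have no background beside them. In MLN vs Ctrl FOSL1 lost its call with the block (0.80, limma adjusted p = 0.0767). With the block, 4 were called in the interaction, 2 of them lower, JUN in MLN vs Ctrl was at −0.00186 and FOSL1 in the interaction at 0.0512. No block could be fitted for Both vs shARF or Both vs MLN, which share 1 number each. TPM carries no depth, so the counting error of scarce genes such as FOS is unknown.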
